A study of Mus musculus with 5 samples.

Results

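The 10 genes described here encode transcription factors of the macrophage lineage: Spi1, Cebpa, Cebpb, Irf8, Runx1, Mef2c, Zeb2, Nr1h3, Tfec and Id3. They were chosen by name, and all 10 were found among the 21887 protein-coding genes of the assembled mouse chromosomes (RefSeq, GRCm38.p6, which has the coordinates of mm10). For each gene, every peak inside its span or within 50 kb of either boundary was taken from 4 deposited peak lists. The lists come from chromatin immunoprecipitation followed by sequencing (ChIP-seq) of C57Bl/6 mouse bone marrow macrophages. Formaldehyde-fixed, sonicated chromatin was precipitated with an antibody to c-Maf (2 libraries, called c-Maf Ab 3 and c-Maf Ab 4 after the numbers in their titles) or with normal rabbit IgG as isotype control (2 libraries, IgG 3 and IgG 4). A single input library, of number 4, served as control of all 4 lists. Every library comes from cells whose source label says polarized to M2, the alternative state, in culture, while every title carries M0, and the labels do not resolve this. The libraries of an antibody are biological replicates according to the design text. Nothing in the labels says whether cells were pooled, and peak lists hold no transcript levels, so the cell type could not be checked against its markers.

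c-Maf is a basic leucine zipper protein that binds DNA as a dimer at Maf recognition elements. The genes examined here make the factors that set up and maintain the macrophage lineage. PU.1 (the product of Spi1), the C/EBP proteins, IRF8 and RUNX1 act in progenitors and in macrophage enhancers, and ZEB2, LXRα (Nr1h3) and ID3 are known for maintaining or specifying tissue macrophages.

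The promoter table used here holds no sequence under any peak near the 10 genes except the end of 1 window, and no peak fell in a promoter window of the 9 genes that the table lists (17 windows of 300 bases, 250 before to 50 after a transcription start; Spi1 was not among them). The first sequence shown is a promoter of Nr1h3, among the 10 genes the only gene near a peak region held by both c-Maf antibody libraries. The others are the 2 member promoters with the motif TGCTGA, and the stretch under a peak. This motif is an arm of the Maf recognition element and was searched on both strands. It is in 19.5% of all 32851 promoter windows and in 2 of the 17 member windows, 1 of Irf8 and 1 of Mef2c, and is in capitals below. The full palindromes, TGCTGACTCAGCA and TGCTGACGTCAGCA, contain the motif at both ends and were in 0 of the 17 windows and 1 of the 32851. For Nr1h3 (chr2:91195117-91195366, minus strand), Irf8 (chr8:120738389-120738638, plus strand) and Mef2c (chr13:83573357-83573606, plus strand) the 250 bases before the listed start are printed 5′ to 3′ from RefSeq, GRCm38.p6. For Madd, a neighbour of Nr1h3 (chr2:91179272-91179301, minus strand), the last 30 bases of the window are printed, with the 15 bases under a peak of c-Maf Ab 3 in capitals. The motif TGCTGA was not among the letters printed for Nr1h3.
Nr1h3: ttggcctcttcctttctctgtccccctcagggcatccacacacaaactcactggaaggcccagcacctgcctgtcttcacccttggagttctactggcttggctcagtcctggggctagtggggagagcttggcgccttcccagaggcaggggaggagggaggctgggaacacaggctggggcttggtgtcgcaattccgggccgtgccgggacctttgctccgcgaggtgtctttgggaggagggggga
Irf8: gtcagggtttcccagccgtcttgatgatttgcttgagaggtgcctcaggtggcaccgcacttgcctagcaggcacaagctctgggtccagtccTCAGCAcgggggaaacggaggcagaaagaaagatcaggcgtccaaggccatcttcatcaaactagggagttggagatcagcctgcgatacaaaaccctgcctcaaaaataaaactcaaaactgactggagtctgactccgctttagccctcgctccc
Mef2c: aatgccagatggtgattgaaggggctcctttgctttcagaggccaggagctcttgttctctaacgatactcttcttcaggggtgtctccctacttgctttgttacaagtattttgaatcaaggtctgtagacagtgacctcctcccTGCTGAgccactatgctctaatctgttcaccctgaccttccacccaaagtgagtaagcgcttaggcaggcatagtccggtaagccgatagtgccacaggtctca
Madd: gggaatgctggcttcTTGCTCAGTGCCCTG

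Depth was nearly equal, with 21655683 to 22017759 tags left after duplicates were filtered in the c-Maf antibody libraries and 21779401 to 21833446 in the isotype libraries. List lengths were not, at 23434 and 17620 peaks for c-Maf Ab 3 and 4 and 58732 and 15568 for IgG 3 and 4. The lists were called at a p-value of 0.01, and the lowest summit pileup was 4 tags in each list except IgG 3, where it was 3 tags. Pileups are given as deposited, in tags scaled to the input, and divided by the scale they came out as whole tags within 0.02 for every peak near the 10 genes. Fold enrichment is the authors' ratio of that pileup to the input level, with the same constant added to each before division. The constant is in the formula for the implied input level, given with the processing below. The p and q values of peaks are also the authors'.

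c-Maf antibody peaks lay near 8 of the 10 genes, but only at Nr1h3 did the 2 c-Maf antibody libraries have a peak at the same place. The number of genes with a peak was 5 of 10 in c-Maf Ab 3, against 66.7% of all protein-coding genes, and 5 of 10 in c-Maf Ab 4, against 53.8%. It was 6 of 10 in IgG 3, against 85% of all genes, and 0 of 10 in IgG 4, against 47.3%. Both c-Maf antibody libraries had a peak near 2 genes, Spi1 and Nr1h3, while this was so for 39.3% of all genes. Mef2c and Id3 had no c-Maf antibody peak, as did 18.7% of all genes, and Id3 had no peak of any list, as did 3.84% of all genes. In no list was the share of genes with a peak within 50 kb higher among the 10 genes than among all genes. Inside the gene spans themselves, c-Maf Ab 3 had a peak in 0 of the 10 genes, against 23.1% of all genes, and c-Maf Ab 4 in 1, against 17.6%. IgG 3 had one in 5 of the 10 genes (Runx1, Mef2c, Zeb2, Nr1h3 and Tfec), against 33.7%, and IgG 4 in 0, against 15.3%.

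**Figure D1:**
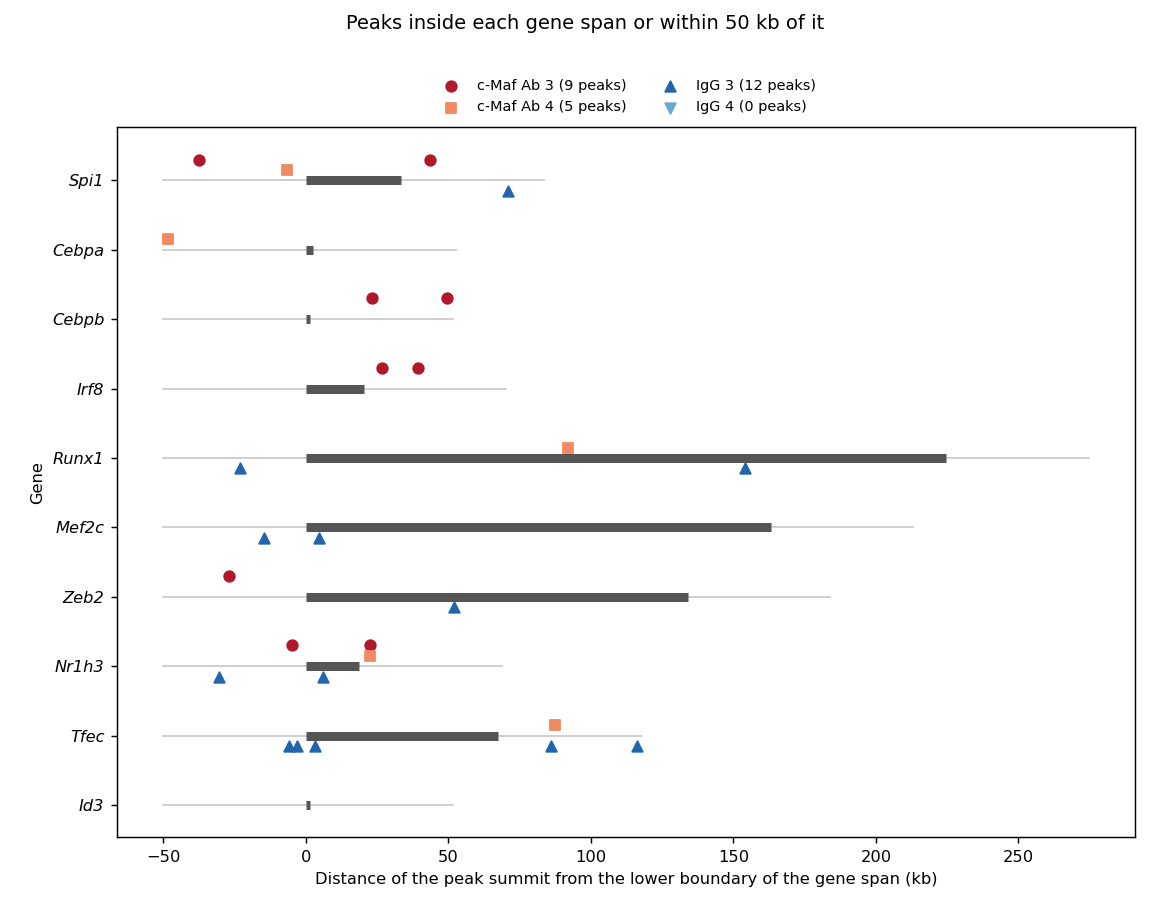
Peaks of the 4 lists near each gene. The x axis is the distance of the peak summit from the lower boundary of the gene span in kb, dark bars are gene spans, thin lines the 50 kb on either side, and each symbol is 1 peak (circles and squares above the line, c-Maf Ab 3 and 4; triangles below it, IgG 3). Only at Nr1h3 do a circle and a square share a position, and IgG 4 has no peak near any of the 10 genes.

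The peaks were counted once each where windows overlap, as those of Spi1 and Nr1h3 do. The joined windows cover 1.64 Mb. They held 9 peaks in c-Maf Ab 3 and 5 in c-Maf Ab 4, and 12 in IgG 3 and 0 in IgG 4. The mean was 7 ± 2.83 peaks for the c-Maf antibody and 6 ± 8.49 for the isotype (SD, n = 2 each), a difference smaller than the spread between libraries (exact permutation test over libraries, two-sided, p = 1.0; the smallest p that 2 against 2 allows is 0.33). The isotype values lie on either side of both c-Maf antibody values, so the groups overlap. The sign of the difference rests on single libraries. It was +1 with all 4 libraries, -1 without c-Maf Ab 3 and -5 without IgG 4. It was +3 without c-Maf Ab 4 and +7 without IgG 3.

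The windows of the 10 genes were poorer in peaks than those of all protein-coding genes in each of the 4 lists. c-Maf Ab 3 had 5.50 peaks per Mb near the 10 genes (exact Poisson interval 2.52 to 10.4 at 95%), against 9.38 per Mb in the joined windows of all protein-coding genes. c-Maf Ab 4 had 3.06 per Mb (0.993 to 7.13), against 6.74. IgG 3 had 7.34 per Mb (3.79 to 12.8), against 22.1. IgG 4 had 0 peaks, which allows up to 1.83 per Mb at 3 counts, against 5.86. The values for all genes lay inside the intervals of the 2 c-Maf antibody libraries, above the interval of IgG 3 and above the limit of IgG 4. The 10 genes were chosen by name, so this is no test and shows no contrast between the antibodies. Intervals and limits cover counting error only. The median number of peaks per 100 kb of window was 0.21 for the 10 genes and 0.85 for all genes in c-Maf Ab 3, 0.15 and 0.51 in c-Maf Ab 4, 0.52 and 1.79 in IgG 3, and 0 and 0 in IgG 4.

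**Figure D2:**
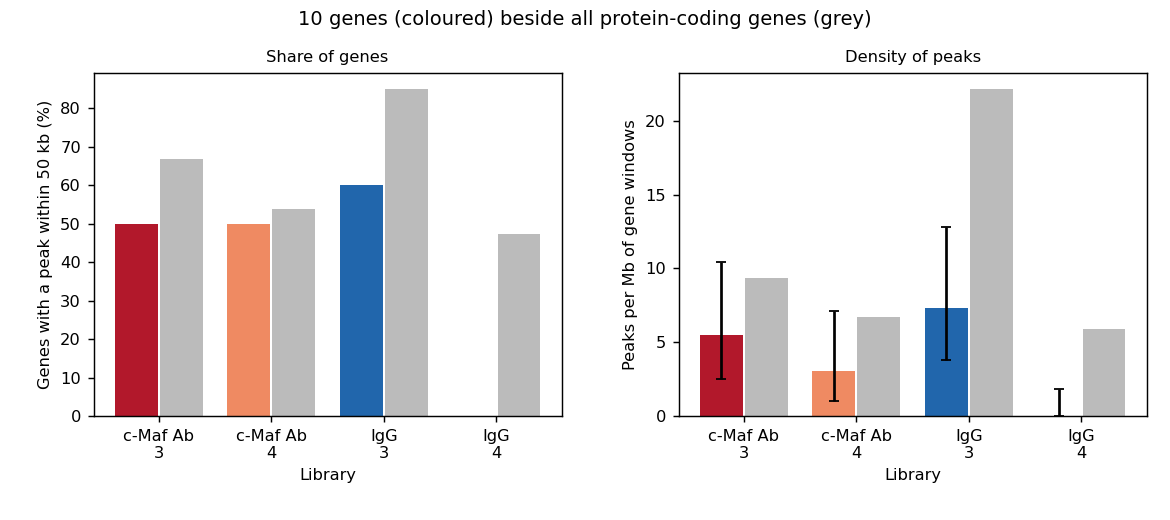
Share of genes with a peak within 50 kb (left, %) and peaks per Mb of joined gene windows (right) in each library, for the 10 genes (coloured bars) and all protein-coding genes (grey bars). Error bars are exact 95% Poisson intervals of the peak count, and for IgG 4 the limit that 0 peaks allows. Every coloured bar is lower than its grey neighbour, from 5.50 against 9.38 peaks per Mb in c-Maf Ab 3 to 0 against 5.86 in IgG 4.

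Nr1h3 encodes LXRα, the nuclear receptor that senses oxysterols and turns on cholesterol efflux genes in macrophages. Its span is 18.8 kb (chromosome 2, 91184061 to 91202829, minus strand). In c-Maf Ab 3 a peak at 91206415 to 91206580 had a pileup of 5.82 scaled tags, which is 6 tags (exact Poisson interval 2.20 to 13.1). In c-Maf Ab 4 a peak at 91206500 to 91206602 had a pileup of 4.93, which is 5 tags (1.62 to 11.7). Intervals of tags, here and at Zeb2 below, cover counting error only and take no account of the p-value cut-off. The peaks overlapped by 81 bp, with summits 106 bp apart, and no isotype peak overlapped them. Together they form a c-Maf-only region of 188 bp, meaning a region held by both c-Maf antibody libraries and by neither isotype library. The region lay 3586 bp outside the upper boundary of Nr1h3 and 11.3 kb upstream of its nearest listed transcription start, the one whose promoter is printed above. It lay inside Acp2, the gene of a lysosomal acid phosphatase, which begins at 91202812, so that the spans of Acp2 and Nr1h3 overlap by a few bases, and 4943 bp from Ddb2, a gene of DNA damage recognition.

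The Nr1h3 region rested on few tags. Its fold enrichment was 4.55 in c-Maf Ab 3 and 4.02 in c-Maf Ab 4. The medians over all 491 c-Maf-only regions of the genome were 4.31 and 4.02. By p-value the peaks stood within the strongest 17.7% of the list of c-Maf Ab 3 and the strongest 46.2% of that of c-Maf Ab 4. The −log10 q was 0.28 in c-Maf Ab 3 and 0.0 in c-Maf Ab 4, so neither peak passed a q-value of 0.05. The input level implied by pileup and fold enrichment was 0.50 scaled tags in c-Maf Ab 3 and 0.47 in c-Maf Ab 4. It equalled the genome-wide background of 0.50 and 0.47, computed from input tags, fragment length and genome size in the headers. The genome size used for that background is the human setting. The input nearby therefore did not exceed that background.

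A c-Maf-only region within 50 kb was found for 1 of the 10 genes (10%, exact binomial interval 0.253% to 44.5% at 95%, counting error only) and for 3.17% of all protein-coding genes. The interval holds that share. The genes were chosen by name, not drawn at random, and the windows of Spi1 and Nr1h3 overlap, so this is no test of enrichment. An isotype-only region, defined with the antibodies exchanged, was found for 0 of the 10 genes and for 1.45% of all genes. The Nr1h3 region lay 3586 bp from the boundary and so was necessarily held within 5 kb and within 10 kb. Of all genes, 1.22% and 1.48% had one there. The region was also held without either isotype library, as leaving one out only relaxes the definition. It was lost at 50% reciprocal overlap, where 1.88% of all genes had a region, and at p of 1e-05 or smaller, where 0.658% had one. Without c-Maf Ab 3 or c-Maf Ab 4, peaks of the remaining one gave 5 of 10 genes each, against 53.0% and 65.8% of all genes. Without IgG 4, peaks of IgG 3 gave 6 of 10 genes with an isotype-only region, against 84.7%.

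Nr1h3 had other peaks that no second library held. In c-Maf Ab 3, a peak at 91179224 to 91179286 lay 4775 bp below the gene and inside Madd, with a pileup of 5.82 and a fold enrichment of 4.19. Its summit was 49 bp after a listed start of Madd, and the last of the sequences above shows the letters it covers there. In IgG 3, peaks lay inside Nr1h3 at 91189989 to 91190041 (pileup 3.92, fold enrichment 3.46) and inside Madd at 91153444 to 91153496 (pileup 2.94, fold enrichment 2.77). The IgG 3 peak in Nr1h3 was 5.04 kb from a listed start, nearer than either c-Maf antibody peak of the region.

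**Figure D3:**
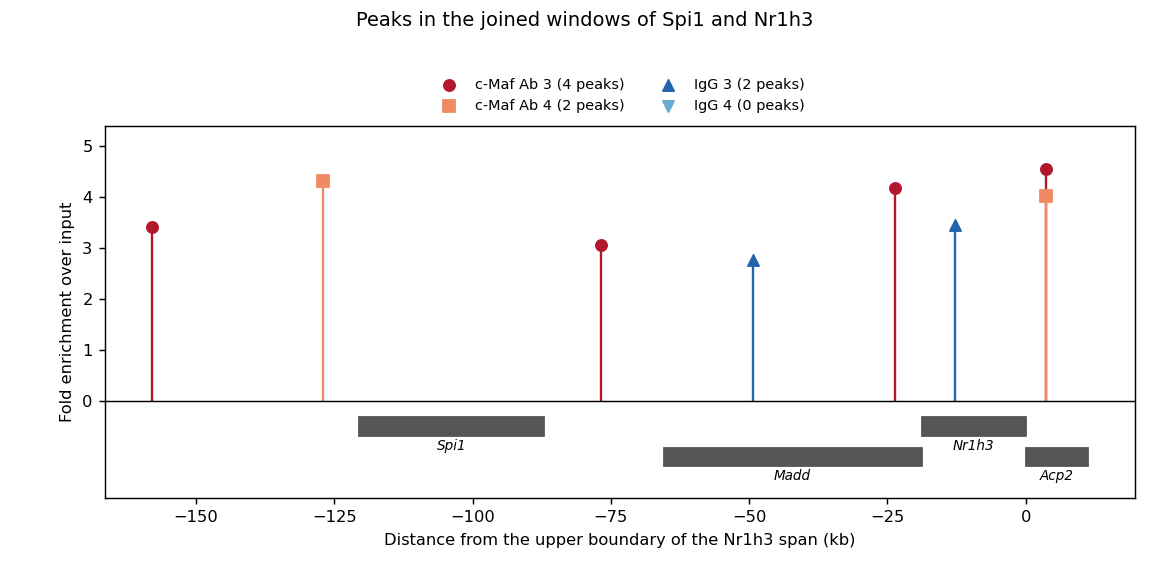
Peaks in the joined windows of Spi1 and Nr1h3 on chromosome 2. The x axis is the distance from the upper boundary of the Nr1h3 span in kb, the height of each stem is the peak's fold enrichment over input, and dark boxes are gene spans. A circle at 4.55 and a square at 4.02 stand together just right of 0, inside Acp2, and every other stem, up to 4.33, stands alone.

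Spi1 encodes PU.1, the Ets-family factor that opens macrophage enhancers. It spans 33.4 kb (chromosome 2, 91082374 to 91115759), with its upper boundary 68.3 kb below Nr1h3. None of its peaks lay inside the gene. In c-Maf Ab 4 a peak at 91075725 to 91075833 lay 6541 bp below the gene, between Spi1 and Slc39a13, with a pileup of 5.92 and a fold enrichment of 4.33. c-Maf Ab 3 had no peak there. Its 2 peaks lay 37.4 kb below the gene, inside Rapsn (pileup 5.82, fold enrichment 3.41), and 10.2 kb above it, inside Mybpc3 (pileup 3.88, fold enrichment 3.05). The IgG 3 peak in Madd also falls in the window of Spi1, 37.7 kb above the gene. The Nr1h3 region lay 90.7 kb above Spi1, outside the window.

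The C/EBP genes, which encode leucine zipper factors of myeloid progenitors and macrophages, had 3 c-Maf antibody peaks between them, each in 1 library. Cebpa, a single-exon gene of 2636 bp (chromosome 7, 35119293 to 35121928), had 1 peak of c-Maf Ab 4, 48.2 kb below the gene near the edge of the window, with a pileup of 4.93 and a fold enrichment of 3.45. Cebpb, of 1518 bp (chromosome 2, 167688915 to 167690432), had 2 peaks of c-Maf Ab 3, 21.5 kb and 47.9 kb above the gene, with pileups of 3.88 and 4.85 and fold enrichments of 3.26 and 3.84. Neither gene had an isotype peak in its window.

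Irf8 encodes the interferon regulatory factor of monocytes and dendritic cells. It lies on chromosome 8 at 120736358 to 120756694. c-Maf Ab 3 had 2 peaks beyond its 3′ end, 6478 bp and 18.9 kb outside the gene, each with a pileup of 4.85, or 5 tags, and with fold enrichments of 3.77 and 3.78. The other 3 lists had none. The peaks lay 24.5 kb and 37.0 kb after the listed start whose promoter holds the motif printed in capitals above.

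Runx1, a founder factor of blood formation that also acts at Spi1, has the longest span of the 10 genes (225 kb, chromosome 16, 92601466 to 92826074, minus strand). Its span held a peak of a c-Maf antibody library, and no other of the 10 spans did. The peak was in c-Maf Ab 4, at 92693362 to 92693421, 60 bp long, with a pileup of 4.93 and a fold enrichment of 3.90. Its summit lay 3928 bp downstream of the inner of the 2 listed starts, the c-Maf antibody summit nearest to a listed start of any of the 9 genes. IgG 3 had a peak inside Runx1 at 92755416 to 92755468 with a higher fold enrichment, 4.49, and another 23.0 kb below the gene with 4.15. IgG 4 had none.

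Mef2c, a MADS-box factor of myeloid progenitors and microglia (chromosome 13, 83504017 to 83667079), had isotype peaks alone. There were 2, both of IgG 3, inside the gene and 14.6 kb below it, each with a pileup of 3.92, which is 4 tags, and a fold enrichment of 3.46. Its nearest peaks were 93.5 kb away in c-Maf Ab 3 and 230 kb in c-Maf Ab 4. The promoter of Mef2c that holds the motif TGCTGA, shown above, belongs to the listed start farthest into the gene. It was 64.8 kb from the nearest of the 2 IgG 3 peaks.

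Zeb2 encodes a zinc-finger repressor that maintains the identity of tissue macrophages (chromosome 2, 44983512 to 45117442, minus strand). It had the strongest c-Maf antibody peak near any of the 10 genes. That peak, of c-Maf Ab 3 at 44956421 to 44956504, lay 27.0 kb beyond the 3′ end, with a pileup of 6.79, or 7 tags (exact Poisson interval 2.81 to 14.4), and a fold enrichment of 4.91. It was the only peak near the 10 genes with p of 1e-05 or smaller (−log10 p 5.55), and its −log10 q was 0.82. By p-value it stood within the strongest 10.8% of the list of c-Maf Ab 3. c-Maf Ab 4 had no peak within 50 kb of Zeb2. An IgG 3 peak lay inside the gene with a fold enrichment of 3.45.

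Tfec encodes a basic helix-loop-helix factor of the Mit/Tfe family that is expressed in macrophages (chromosome 6, 16830927 to 16898464, minus strand). It had the most peaks of the 10 genes, mainly of the isotype. c-Maf Ab 4 had 1 peak, 19960 bp upstream of the gene, with a pileup of 5.92 and a fold enrichment of 3.46. IgG 3 had 5 peaks, 1 of them inside the gene, with pileups between 2.94 and 5.87. Of these, 1 lay 18.4 kb upstream, close to the c-Maf antibody peak but not overlapping it.

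Id3 encodes a helix-loop-helix inhibitor that lacks a DNA-binding region and is known from Kupffer cells. It spans 1571 bp (chromosome 4, 136143822 to 136145392) and had no peak of any list in its window. Its nearest peaks were 146 kb away in c-Maf Ab 3 and 80.1 kb in c-Maf Ab 4, and 56.3 kb in IgG 3 and 295 kb in IgG 4.

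The peaks nearest to the limit of 50 kb on its inner side were the Tfec isotype peak at 48.7 kb and the Cebpa peak at 48.2 kb. The first outside were the Id3 isotype peak at 56.3 kb and the c-Maf Ab 3 peak inside Mybpc3, which is 58.0 kb from Nr1h3. At 80.1 kb above Zeb2 lay a c-Maf-only region at 45197529 to 45197641 that was stronger than the one at Nr1h3, with fold enrichments of 6.83 (c-Maf Ab 3) and 5.13 (c-Maf Ab 4) and −log10 q values of 3.36 and 0.83. Zeb2 is the gene nearest to it. With a window of 100 kb, regions of this kind were near 3 of the 10 genes, namely Zeb2, Nr1h3 and, through the Nr1h3 region, Spi1, against 5.33% of all genes.

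Across the 26 distinct peaks near the 10 genes, fold enrichments were close to those of the whole lists. None of the 26 passed a q-value of 0.05. In the whole lists 3.06% of c-Maf Ab 3 peaks, 2.87% of c-Maf Ab 4 peaks and 0.415% of IgG 3 peaks did, so that none among so few peaks says nothing particular to these genes. Fold enrichments ranged from 3.05 to 4.91 for the 9 peaks of c-Maf Ab 3, with a median of 3.78, against 3.89 over that whole list. They ranged from 3.45 to 4.33 for the 5 peaks of c-Maf Ab 4, with a median of 3.90, against 3.96. For the 12 peaks of IgG 3 they ranged from 2.76 to 4.49, with a median of 3.46, equal to that of its list. Pileups stood for 4 to 7 tags in c-Maf Ab 3, 5 to 6 in c-Maf Ab 4 and 3 to 6 in IgG 3. Peaks were 63 to 166 bp, 60 to 113 bp and 53 to 80 bp long, in the same order of lists. The lower limits of 63, 60 and 53 bp are the fragment lengths in the headers, and also the shortest and the median lengths of the whole lists. The peaks of the Nr1h3 region were 166 bp, the longest of the 9 in c-Maf Ab 3, and 103 bp, the median of the 5 in c-Maf Ab 4. At 13 of the 26 peaks the implied input level was within 0.02 of the genome-wide background. These were 2 peaks of c-Maf Ab 3, 1 of c-Maf Ab 4 and 10 of IgG 3. No such share over the whole lists is given here, so these counts say nothing particular to the 10 genes.

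**Figure D4:**
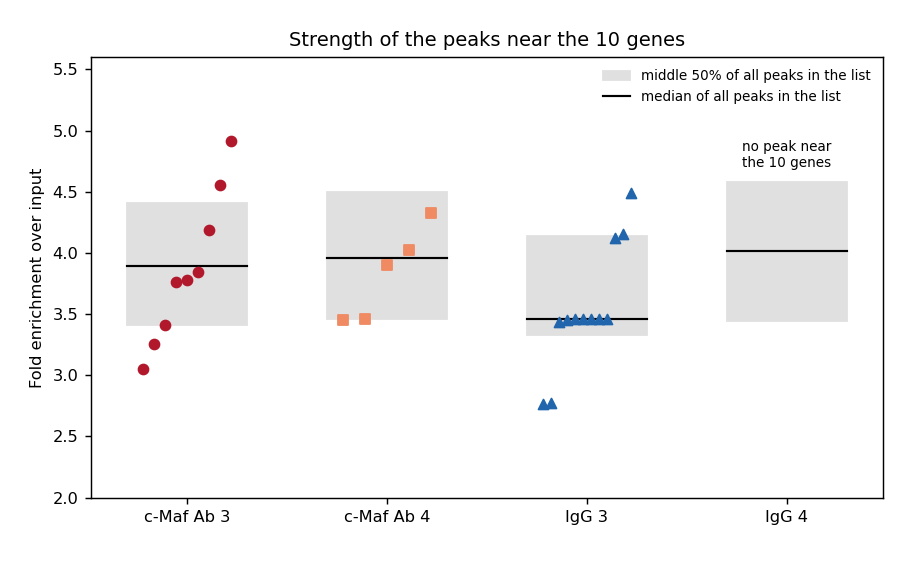
Fold enrichment over input (y axis) of each peak near the 10 genes, by library. Grey boxes span the middle 50% of all peaks in the same list and black lines are their medians; the y axis starts at 2. The coloured points lie around the medians of 3.89, 3.96 and 3.46, up to 4.91 at Zeb2.

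Sharing between lists was rare near the 10 genes and in the lists as a whole. Of the 9 peaks of c-Maf Ab 3, 1 (11.1%) overlapped a peak of c-Maf Ab 4, against 3.36% of the whole list. Of the 5 peaks of c-Maf Ab 4, 1 (20%) overlapped a peak of c-Maf Ab 3, against 4.46% of its list. Both counts are the Nr1h3 region. Of the 14 c-Maf antibody peaks, 0 overlapped an isotype peak. In the whole lists, 3.64% and 2.31% of c-Maf Ab 3 peaks overlapped peaks of IgG 3 and IgG 4, and 4.24% and 3.25% of c-Maf Ab 4 peaks did.

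Relatives and partners of these factors were examined in the same way. In 9 lists of family members and partners with 50 genes, 3 genes had at least 1 c-Maf-only region within 50 kb (6%) and 1 gene had an isotype-only region, the Ets gene Etv3 (2%), against 3.17% and 1.45% of all genes. Counts were 0 of 9 among Ets relatives of Spi1, 1 of 5 in the C/EBP family, 0 of 8 interferon regulatory factors, 0 of 4 in the Runx family with its partners and 0 of 3 other Mef2 genes. They were 0 of 5 for Zeb1 and repressor partners of the Zeb family, 1 of 7 for liver X receptors and partners, 1 of 3 in the Mit/Tfe family and 0 of 6 for Id genes and E proteins. Of 21 other macrophage and monocyte factors 0 had one, and of 30 factors of other cell lineages 0 had one. The median number of c-Maf-only regions was 0 in each list.

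The 3 genes were Rxra, Tfe3 and Cebpe. Rxra, the partner with which LXRα binds DNA, had a region inside the gene on chromosome 2 at 27740232 to 27740294, with pileups of 5.82 and 5.92 and fold enrichments of 3.41 and 3.46 in c-Maf Ab 3 and 4. Tfe3, a lysosomal stress factor related to Tfec, had one inside the gene on chromosome X at 7764124 to 7764263, with fold enrichments of 5.2 and 4.02. Cebpe, a granulocyte factor, had 2 regions at 37.2 kb and 44.3 kb, both inside the transporter gene Slc7a8 on chromosome 14, with fold enrichments of 4.99 and 6.32 in c-Maf Ab 3 and 5.13 and 5.00 in c-Maf Ab 4. The second of them had a −log10 q of 3.23 in c-Maf Ab 3 and 0.83 in c-Maf Ab 4. These 3 genes match or exceed the 1 region of Nr1h3, the measure of likeness being the number of c-Maf-only regions within 50 kb over the 4 libraries. Over all protein-coding genes, 79 had 2 or more regions, and the highest counts were 6 at Hjurp and at Mroh2a, 4 at Sfi1 and at Speer4d, and 3 at Dnajb3 and others. Hjurp and Mroh2a overlap and Dnajb3 lies near them on chromosome 1, so their counts can include the same regions.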

How the data were processed

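The authors called peaks per library with MACS 2.1.1.20160309 against the input of number 4, at a p-value cut-off of 0.01, with single-end tags of 50 bp and 1 tag kept per position, per the file headers. The submitters' processing notes name mm10, FastQC, MACS 1.4.2 and MACS2, and no aligner is named in them or in the headers. Per the file headers, deposited peaks have a summit pileup signal scaled to the smaller library, a fold enrichment ratio and the −log10 of p and q. Peaks sharing 1 bp or more across the lists were joined into regions (Python 3.11.15, pandas 2.3.3), with code tested on simulated peaks. Gene spans, listed starts and strands came from RefSeq tables without exons. The implied input level is (pileup + 1) / fold − 1, and its background is input tags times fragment length over the headers' genome size, which is the human setting. The members, lists and rules were chosen with earlier results of these data known, and no list was tested for enrichment. Named are the 10 genes, genes of the other lists with a c-Maf-only region, the genes with the most such regions, and genes in or next to which a peak lies. Etv3 and the Zeb2 region beyond the window were added after their values were seen. The peaks are few tags deep, which limits the precision of each. In all, 13 alternative settings were run.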

Additional observations from a re-analysis of the deposited data

How the results depend on the processing

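Settings changed the window, the peak threshold, the list lengths, the definition of a shared peak or the libraries. The number of the 10 genes with a c-Maf-only region was 1 as deposited, 3 with a 100 kb window, 0 at p of 1e-05, 0 at q of 0.05 and 0 at 50% reciprocal overlap, and lay between 1 and 5 when single libraries were left out, where peaks of a lone library need no replicate. It stayed 1, always at Nr1h3, with 5 kb or 10 kb windows, equal list lengths and summits within 200 bp. The Nr1h3 region had to be kept there, given its distance of 3586 bp, the ranks of its peaks and summits 106 bp apart. The number with an isotype-only region was 0 under each setting except without IgG 4, where it was 6, giving a range of 0 to 6. Peaks of c-Maf Ab 3 near the 10 genes that c-Maf Ab 4 shared numbered 1 as deposited and 2 with a 100 kb window. They numbered 0 at p of 1e-05, 0 at q of 0.05 and 0 at 50% reciprocal overlap. This count uses no isotype peak, so leaving out an isotype library could not change it, and it stayed 1. Without a c-Maf antibody library no value exists. Stricter thresholds keep fewer peaks by construction; why 50% reciprocal overlap lost the region is shown by its construction too, since the 81 bp shared are less of the 166 bp peak than it asks.

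The difference in peak number, c-Maf antibody minus isotype, was 1 as deposited and turned to -1 with a 5 kb window and to -0.5 with a 10 kb window, and to 0 at q of 0.05. Leaving out single libraries gave -5 to 7. At equal list lengths of 15568 peaks it was 4.5, from 6 peaks in c-Maf Ab 3, 5 in c-Maf Ab 4, 2 in IgG 3 and 0 in IgG 4 (exact permutation test, p = 0.33, the smallest possible). The cause of the turns was not tested. The labels tie no animal or day to a number, and 2 numbers are too few to show a pairing. With the number as a replicate block, 1 gene had a c-Maf-only region, 0 had an isotype-only region and the difference was 1 (exact permutation within numbers, p = 1.0, smallest possible 0.5), so no value changed.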

Other observations

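The nearest c-Maf-only region to the other 7 genes (Spi1, Nr1h3 and Zeb2 are described above) lay far outside the 50 kb window. It was 207 kb from Cebpa, inside the dipeptidase gene Pepd, and 259 kb from Cebpb, inside Ptpn1, which encodes a tyrosine phosphatase of insulin and cytokine receptors. It was 911 kb from Irf8, inside Cotl1, an actin-binding protein gene, and 834 kb from Runx1, inside Itsn1, an endocytosis adaptor gene. For Tfec it was 1168 kb away and for Mef2c 5646 kb. For Id3 it was the region overlapping C1qb, a complement gene of macrophages, at 741 kb. The median distance over the 10 genes was 499.8 kb, against 1656 kb over the 21631 protein-coding genes on chromosomes with such a region. The distances of the 10 genes ranged from 3.59 kb to 5646 kb, and those of Spi1 and Nr1h3 are to the same region. Whether the medians differ was not tested. For peaks of single libraries the 10 genes were the farther ones. The median distance to the nearest peak was 42.6 kb against 25.5 kb over all genes in c-Maf Ab 3 and 64.1 kb against 43.0 kb in c-Maf Ab 4. It was 18.8 kb against 8.92 kb in IgG 3 and 195 kb against 55.7 kb in IgG 4. The fold enrichments of the 7 regions named first ranged from 3.59 to 5.38 in c-Maf Ab 3 and from 3.15 to 4.94 in c-Maf Ab 4.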
